A study of Drosophila melanogaster with 20 samples.

Results

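Claudins and tricellular junction proteins belong to the septate junction, the ladder-like contact that closes the space between neighbouring insect cells. Claudins are small proteins that cross the membrane and, in vertebrates, form the strands of tight junctions. Tricellular junction proteins seal the points where the corners of cells meet. In the fly brain, septate junctions between subperineurial glia close the blood-brain barrier, and perineurial glia lie over them; both layers are called surface glia. The genes described were the claudin genes sinu, kune and pck, the tricellular junction genes M6, Gli and aka, and Fas3, which encodes a homophilic adhesion protein of septate junctions. They were chosen by name, as probe sets (groups of array probes that give 1 value) whose only annotated symbol was the current or a former name of a gene. This found 6 probe sets for 6 of the 7 genes, 1 each, of 11982 genes with such a probe set and 18769 probe sets tested. For aka the annotation used the name bark. Fas3 had no probe set in the annotation, either alone or shared with other symbols, and was not analysed here. The probe sets of pck, M6 and Gli carry the suffix of the array maker for probes shared by several transcripts, and each had 1 gene in the annotation. RefSeq's Release 6 gene table places M6 over part of the gene SAK. Whether the probes of M6 lie in the shared stretch was not tested.

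The data were single-channel Affymetrix arrays of adult Drosophila melanogaster brains, with 5 arrays in each of 4 groups and both sexes in every sample. The whole-brain arrays each held 5 brains of Canton S, a wild type, with all cells of the organ. Neurons were sorted from ELAV-GFP brains, all glia from REPO-GFP brains and surface glia from 9.137-GFP brains, 10 to 15 brains per array, by the green fluorescent protein that each line carries; the labels give no age and no further alleles. Brains were digested with collagenase at 37 degrees and shaken at 1000 rpm for 20 min for neurons, 500 rpm for 20 min for all glia and 500 rpm for 5 min for surface glia, so line and digestion cannot be told apart from cell type. The labels do not say whether whole brains were digested, so sorting cannot be told apart from group there either. In such bulk samples, fewer cells of a type and less RNA per cell cannot be told apart. Replicates came from separate growth bottles and days, per the series' design text.

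The surface glia markers moody, Mdr65, Indy, Tret1-1 and vkg had a mean level of 12.49 in surface glia (12.22 to 12.87 over the arrays), 10.73 in all glia, 4.84 in neurons and 9.31 in whole brain, on the log2 scale of the deposited values. The neuronal markers elav, nSyb and brp (3 of 5 listed had a probe set) averaged 12.40 in surface glia (11.76 to 12.95), 12.96 in all glia and 13.20 in neurons, so they were high in each sort. The astrocyte and cortex glia markers alrm, Gat, wrapper and zyd averaged 10.70 in whole brain, 5.82 in all glia and 5.18 in surface glia, and Gat lay within the negative controls on every array of both glial sorts. The levels of these markers in the sort labelled all glia were thus far under those of whole brain. The pan-glial markers repo, Inx2, ogre, bnb and loco averaged 9.89 in all glia, 11.27 in surface glia, 10.82 in whole brain and 6.98 in neurons. In all glia repo (7.85), Inx2 (9.39) and ogre (9.60) lay under both whole brain (10.11, 11.49 and 11.33) and surface glia (10.66, 10.98 and 11.81). For loco all glia lay above whole brain (9.69 against 8.03), and bnb was at 12.90 and 13.12. The 44 negative control probe sets, made for bacterial and tag sequences, had a mean median that was lowest in whole brain (2.65), then 3.15 for neurons, 3.79 for all glia and 3.96 for surface glia. A gene was taken as above them on an array where it exceeded their 95th percentile there, which averaged 3.72, 4.39, 5.15 and 5.23 in the same order. All glia 4 and surface glia 4 correlated least with their groups, at 0.772 and 0.785 on average, against 0.821 to 0.892 for the other glial arrays. The standard deviation within a group had a median over probe sets of 0.15 for whole brain, 0.27 for neurons, 0.59 for all glia and 0.58 for surface glia, and the limma test used below pools the 4 groups into 1 estimate of spread for each probe set.

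Of the 6 genes, the claudin genes sinu and kune and the tricellular junction gene M6 had their lowest levels in surface glia, below those of the other 3 groups, and sinu differed most. To pass the test, a probe set needed a limma adjusted p below 0.05 together with a log2 difference no smaller than 1. Gli is counted below although it lay within the negative controls on every sorted array. Against neurons 3 were lower (sinu, kune and M6), where 15.0% of all probe sets were called lower, and 2 were higher (Gli and aka), where 10.4% were called higher. Against whole brain 4 were lower (sinu, kune, M6 and Gli), where 19.3% were called lower. Against all glia 3 were lower (sinu, kune and M6), where 2.29% were called lower, and sinu alone of these kept its call in each of 28 alternatives. The median over the 6 genes was −1.31, −1.50 and −0.67 in these comparisons, in the same order, and that over all probe sets was 0.36, 0.39 and 0.05. Over the 14571 probe sets above the negative controls on at least 5 arrays, that median was 0.04, −0.14 and 0.01. Of these probe sets, 2781, 3564 and 484 were called lower. Arrays of the groups did not overlap for 5 of the 6 against neurons, 3 against whole brain and 2 against all glia, beside 29.6%, 56.7% and 2.54% of all probe sets. All glia against neurons had sinu lower, where 4.35% were called lower, and aka higher, where 3.18% were called higher, with 3 genes and 18.0% of probe sets not overlapping. All glia against whole brain had sinu and Gli lower, where 14.8% were called lower, with 4 genes and 52.8% not overlapping. Neurons against whole brain had Gli lower, where 9.82% were called lower, with 2 genes and 51.4% not overlapping. These comparisons share their arrays, so their counts are not independent.

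The falls of sinu, kune and M6 in surface glia against neurons and against whole brain kept their call in each of 28 alternatives. Not all alternatives were checks of equal weight. Leaving out an array of a group not compared kept the difference as it was, and dropping the minimum difference could not undo a call. Beside these falls, the neuronal markers averaged 12.40 in surface glia, 13.20 in neurons and 13.05 in whole brain, and the part of these markers in the falls was not tested. A control for RNA integrity and amplification, the probe sets for the 3′ and 5′ ends of eIF-4a, had a 3′ excess of 3.64 to 4.53 in surface glia, 4.50 to 5.65 in neurons and 1.98 to 2.58 in whole brain. The same excess for GAPDH was 2.92 to 4.59, 3.76 to 5.14 and 3.03 to 3.35, and there surface glia overlapped both other groups. The part of either excess was not tested.

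sinu encodes Sinuous, a claudin needed for septate junctions and tube size in the fly's trachea. Its level was 8.98, 8.98, 9.24, 8.88 and 9.25 on the 5 whole-brain arrays and 9.34, 9.42, 9.24, 9.39 and 9.01 on the neuron arrays. On the all-glia arrays it was 6.70, 8.57, 8.55, 8.26 and 7.49, and on the surface glia arrays 5.67, 5.39, 4.05, 4.16 and 4.63. Every surface glia array lay under every array of each other group, and every all-glia array lay under every neuron and whole-brain array. sinu was lower in surface glia than in neurons by a log2 difference of −4.50 (SE 0.34, limma, adjusted p = 1.10e-08), than in whole brain by −4.29 (adjusted p = 2.59e-08) and than in all glia by −3.13 (adjusted p = 3.93e-05). Only 2 of the 5 surface glia arrays exceeded the negative controls, and the mean of 4.78 lay under their mean percentile, so how large these falls were is uncertain. Measured from that percentile, sinu in neurons stood 4.05 higher and in all glia 2.69 higher. In rank within its array, sinu lay above 83.3% to 85.7% of probe sets in neurons, 63.3% to 84.6% in all glia and 11.1% to 50.3% in surface glia. All glia were lower than neurons by −1.37 (adjusted p = 0.0181) and than whole brain by −1.15 (adjusted p = 0.00791). Both calls were lost when the arrays were quantile normalized once more, at −0.99 (adjusted p = 0.156) and −0.59 (adjusted p = 0.290), and the second was also lost without all glia 1, at −0.85. Neurons and whole brain did not pass against each other (0.21, 95% confidence interval −0.50 to 0.93).

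**Figure D1:**
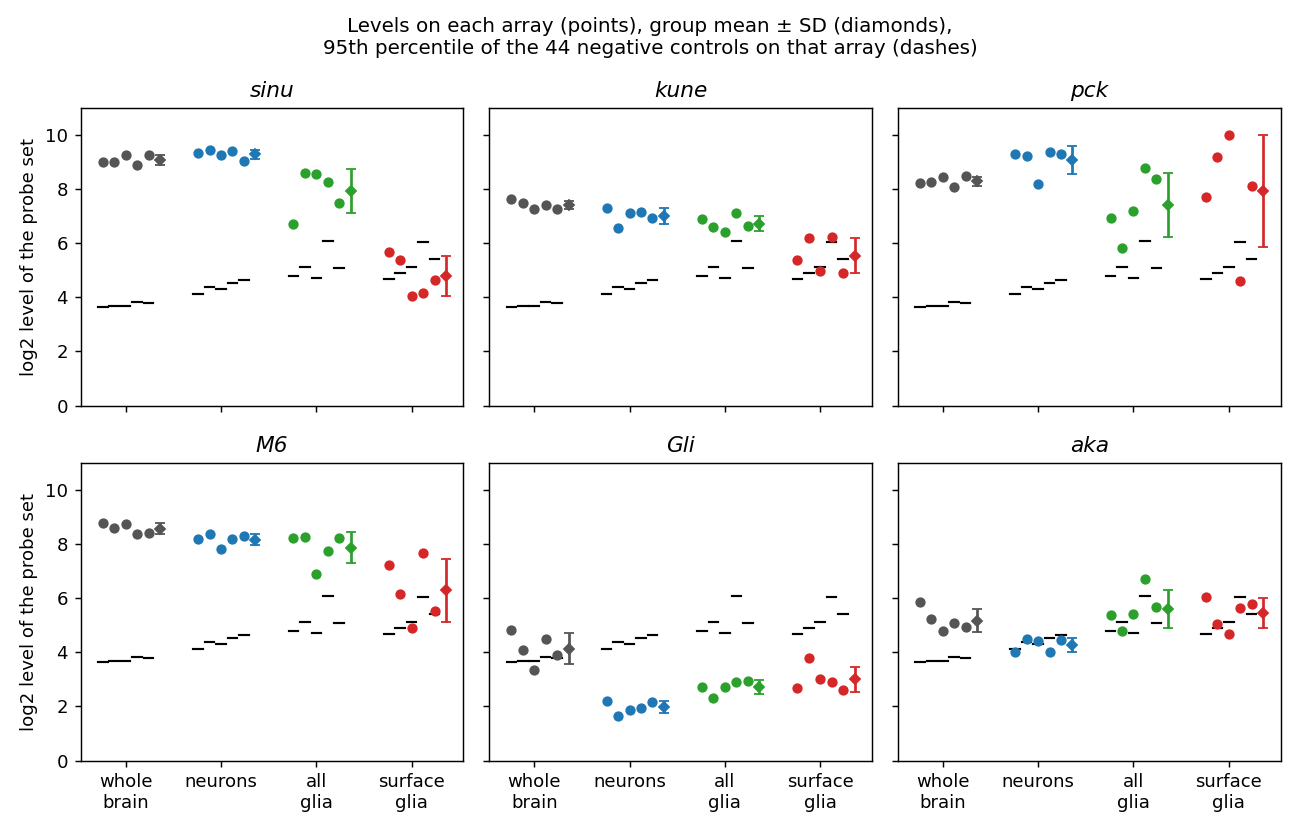
Log2 level of each gene's probe set on every array (points, 5 per group), with the group mean ± SD (diamonds) and the 95th percentile of the 44 negative controls on the same array (black dashes). sinu falls from 9.28 in neurons to 4.78 in surface glia, where it reaches the dashes, and Gli lies below the dashes on every sorted array.

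kune encodes Kune-kune, a claudin that epithelia need to place the other septate junction proteins. It was at 7.62, 7.46, 7.26, 7.42 and 7.24 in whole brain and at 7.28, 6.55, 7.09, 7.16 and 6.91 in neurons. In all glia it was at 6.87, 6.58, 6.42, 7.12 and 6.61, and in surface glia at 5.36, 6.20, 4.98, 6.21 and 4.89. Again all surface glia arrays were under all arrays of the other groups, while neurons and all glia overlapped. kune was lower in surface glia than in whole brain by −1.87 (SE 0.25, limma, adjusted p = 1.17e-05), than in neurons by −1.47 (adjusted p = 0.000342) and than in all glia by −1.19 (adjusted p = 0.00817). It exceeded the controls on 3 of the 5 surface glia arrays and on every array of the other groups. The call against all glia did not hold with array weights estimated per group (adjusted p = 0.132) or in a fit of these 10 arrays alone (adjusted p = 0.205), and over all 28 alternatives its adjusted p ran from 0.00285 to 0.205. All glia and whole brain did not overlap but differed by −0.68, under the minimum of 1. Neurons differed from whole brain by −0.40 and all glia from neurons by −0.28, and neither passed.

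pck encodes Pickel, also named Megatrachea, the remaining claudin of the set. Its level was 8.20, 8.25, 8.42, 8.05 and 8.46 in whole brain and 9.27, 9.23, 8.16, 9.36 and 9.29 in neurons. In all glia it was 6.92, 5.81, 7.18, 8.78 and 8.37, and in surface glia 7.70, 9.17, 10.00, 4.60 and 8.10. Unlike sinu and kune it was above the controls on 4 of the 5 surface glia arrays, and surface glia 4 alone lay under them. The surface glia values spanned those of all other groups, with a standard deviation of 2.06 that exceeded those of 95.2% of probe sets in surface glia. pck passed in none of the 6 comparisons; in surface glia it differed from neurons by −1.15 (SE 0.71, 95% confidence interval −2.64 to 0.34, limma, adjusted p = 0.175), from whole brain by −0.36 (−1.85 to 1.13) and from all glia by 0.50 (−0.99 to 1.99). The values of pck rested on the arrays that stood apart. Without all glia 4 and surface glia 4 it was higher in surface glia than in all glia by 1.67 (adjusted p = 0.0447), lower in all glia than in neurons by −1.99 (adjusted p = 0.0110) and lower in all glia than in whole brain by −1.21 (adjusted p = 0.0370). The difference from whole brain in surface glia then turned from −0.36 to 0.47, and leaving out surface glia 4 alone gave the same 0.47. Against all glia it was −0.02 without surface glia 3, and against neurons it lay between −1.67 and −0.32 over the fits that each left out 1 array. Leaving out surface glia 4 alone also let the all-glia fall against neurons pass, at −1.65.

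M6 encodes the fly's member of the proteolipid protein family and sits at tricellular junctions. It was at 8.77, 8.59, 8.72, 8.35 and 8.39 in whole brain and at 8.17, 8.35, 7.80, 8.19 and 8.28 in neurons. In all glia it was at 8.21, 8.26, 6.90, 7.75 and 8.20, and in surface glia at 7.21, 6.15, 4.88, 7.66 and 5.52. Surface glia lay wholly under neurons and whole brain but overlapped all glia, where surface glia 1 and 4 exceeded all glia 3. M6 was lower in surface glia than in whole brain by −2.28 (SE 0.40, limma, adjusted p = 0.000108), than in neurons by −1.87 (adjusted p = 0.00196) and than in all glia by −1.58 (adjusted p = 0.0239). It was above the controls on 4 of the 5 surface glia arrays. The call against all glia was the least stable one: it was lost with array weights per group (adjusted p = 0.125), in a fit of the 2 groups alone (adjusted p = 0.308) and without all glia 1, 2 or 5 or surface glia 3 or 5. Without 1 array at a time that difference ranged from −1.92 to −1.23. All glia differed from whole brain by −0.70, from neurons by −0.29, and neurons from whole brain by −0.41, and none of these passed.

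**Figure D2:**
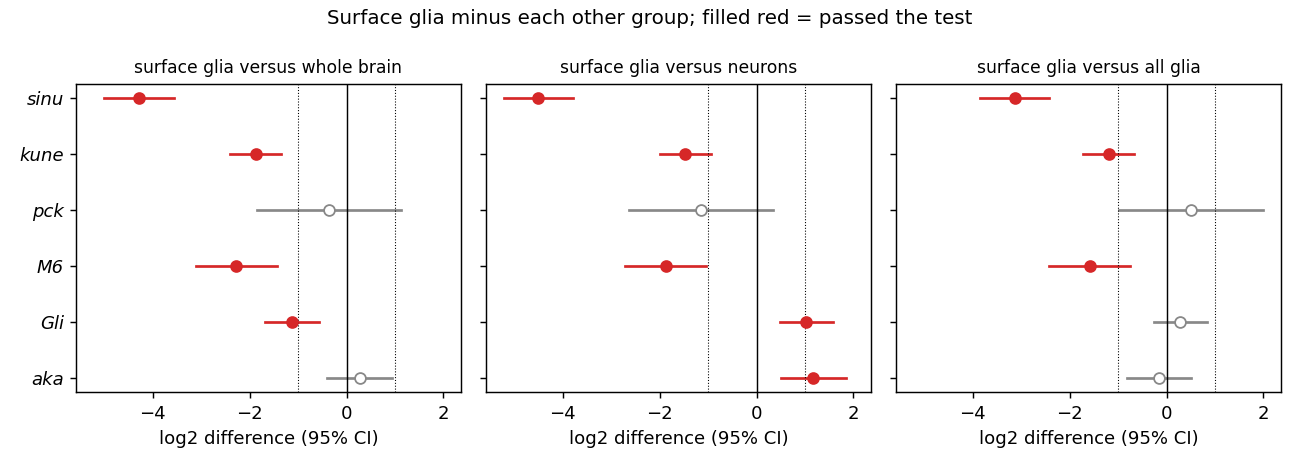
Log2 difference of surface glia minus whole brain, neurons and all glia for each gene (horizontal axis), with its 95% confidence interval from the fit; filled red points passed the test and dotted lines mark a difference of 1. sinu lies farthest to the left in each panel, at −4.29, −4.50 and −3.13, and the intervals of pck cross 0. The points of Gli rest on sorted levels within the negative controls.

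Gli encodes Gliotactin, a neuroligin-like membrane protein of tricellular junctions that was first described in peripheral glia. Its level was 4.83, 4.07, 3.34, 4.48 and 3.91 in whole brain and 2.20, 1.66, 1.85, 1.95 and 2.18 in neurons. In all glia it was 2.70, 2.30, 2.71, 2.91 and 2.94, and in surface glia 2.69, 3.77, 3.03, 2.90 and 2.60. No sorted array exceeded the negative controls, and 4 of the 5 whole-brain arrays did, all but whole brain 3. Gli passed as lower in neurons (adjusted p = 5.05e-06), all glia (adjusted p = 0.000267) and surface glia (adjusted p = 0.00111) than in whole brain, but the sizes of these differences cannot be read, because the whole-brain mean of 4.13 lay under the control percentile of each sorted group. The last of these overlapped, at whole brain 3 and surface glia 2, and did not hold with array weights per group (adjusted p = 0.0644) or without whole brain 1. Gli also passed as higher in surface glia than in neurons (adjusted p = 0.00603), within the controls on both sides. The median of the negative controls was itself higher by 0.81 there, and the call did not hold with arrays centred on their medians, after another quantile normalization, with array weights per group (adjusted p = 0.133) or without neurons 2 or surface glia 2.

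aka, listed as bark, encodes Anakonda, a large membrane protein that brings Gliotactin to the tricellular junction. It was at 5.86, 5.23, 4.77, 5.07 and 4.92 in whole brain and at 4.01, 4.48, 4.40, 3.99 and 4.46 in neurons. In all glia it was at 5.39, 4.78, 5.42, 6.71 and 5.68, and in surface glia at 6.05, 5.06, 4.69, 5.63 and 5.77. Every neuron array lay under every array of the other groups, which overlapped one another. It exceeded the controls on all whole-brain arrays, 2 of 5 neuron arrays, 4 of 5 all-glia arrays and 3 of 5 surface glia arrays. aka was higher than in neurons by 1.33 in all glia (SE 0.32, limma, adjusted p = 0.0140) and by 1.17 in surface glia (adjusted p = 0.00842), while the median of the negative controls was higher by 0.64 and 0.81 there. The neuron mean of 4.27 lay under the mean control percentile, so both sizes are uncertain. Neither call held with array weights per group (adjusted p = 0.0586 and adjusted p = 0.0537), and after another quantile normalization the surface glia difference was 0.88 (adjusted p = 0.0596). The lower value in neurons than in whole brain, −0.90, did not reach the minimum of 1. Surface glia and all glia differed by −0.16 (95% confidence interval −0.82 to 0.51).

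The genes did not take the same order over the 5 surface glia arrays. On surface glia 3, sinu was at its lowest (4.05), M6 was also at its lowest (4.88) and pck at its highest (10.00). On surface glia 4, pck was at its lowest (4.60) while M6 (7.66) and kune (6.21) were at their highest. Surface glia 3 also had the highest mean of the muscle markers (4 of 5 measured), 8.69 against 4.12 to 5.11 on the other arrays, and of the surface glia markers, 12.87. Surface glia 4 had the lowest mean of the neuronal markers, 11.76, and of the fat body markers, 6.77. By group the fat body markers averaged 8.12 in surface glia, 8.02 in all glia, 7.40 in whole brain and 6.75 in neurons. Among them Yp1 was at 12.69, 10.39, 8.89 and 7.27 in the same order, whereas FASN1 had its lowest mean in surface glia, at 9.92. The mean of apolpp was 8.27 in surface glia, with arrays from 4.26 to 11.47, and 8.28 in neurons. The trachea markers (4 of 5 measured), of tubes that also build septate junctions, averaged 4.37 to 5.28 on the surface glia arrays and 3.53 to 3.75 in whole brain. Their means in these groups lay less far apart than the median negative controls of 3.96 and 2.65. Gasp was within the controls throughout, and serp on all whole-brain arrays and on 4 of 5 surface glia arrays. The hemocyte markers averaged 6.82 to 7.83 in surface glia, 6.53 to 7.13 in all glia, 4.98 to 5.63 in whole brain and 5.00 to 5.34 in neurons. Among them srp, NimC1, Hml and eater passed as higher in surface glia than in neurons, at 3.79, 2.61, 2.29 and 1.78. The remaining one, Pxn, did not pass, at −0.09, with means of 10.51 and 10.60. Hml and srp lay within the controls on every neuron array, and the median negative controls were 3.96 in surface glia and 3.15 in neurons. The part of these markers in the levels of the junction genes was not tested.

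**Figure D3:**
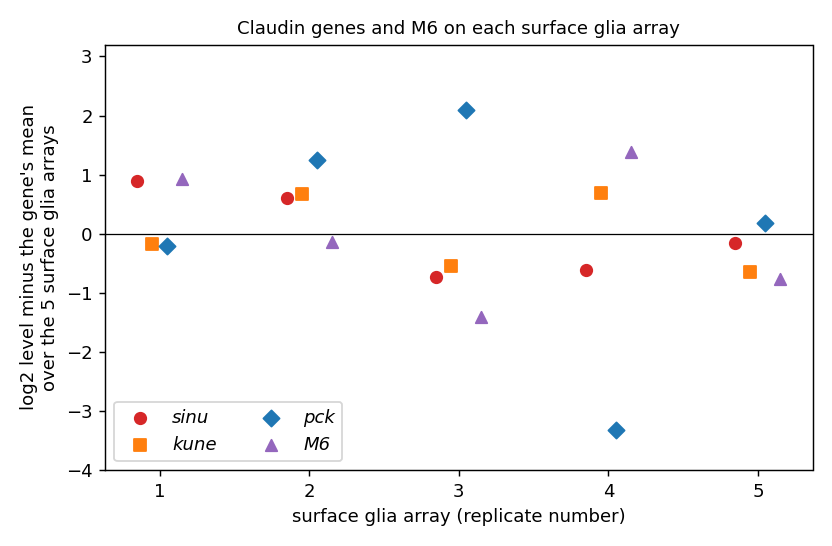
Log2 level of sinu, kune, pck and M6 on each of the 5 surface glia arrays (horizontal axis, replicate number), as the difference from that gene's mean over the 5 arrays. pck is highest on array 3 and lowest on array 4, where M6 and kune are at their highest.

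Other septate junction genes were listed from general knowledge, with earlier results of these data known, and taken by their brightest probe set. Of 12 core genes 10 were measured, and 3 were higher and 2 lower in surface glia than in neurons, beside 10.4% and 15.0% of all probe sets. The list median was −0.21, against 0.36 over all probe sets and 0.04 over those above the controls on at least 5 arrays. The largest rise was that of nrv1 at 2.80 (adjusted p = 0.00292), a beta subunit of the sodium pump, and the largest fall that of yrt at −2.05 (adjusted p = 0.00871), which encodes the FERM-domain protein Yurt. The rise of Nrg, the adhesion protein Neuroglian, at 2.49 was shared by another of its probe sets at 2.18 but not by the remaining one at −0.28, and nrv2, another pump subunit, was at 1.79. The scaffold gene cora, at 12.78 in surface glia and 12.56 in neurons, did not pass. Against all glia 2 core genes were higher, nrv1 at 2.73 and Nrg at 2.43, and 0 were lower, beside 2.46% of all probe sets called higher and 2.29% called lower. The other probe sets of Nrg, at 1.34 (adjusted p = 0.181) and −0.30 (adjusted p = 0.749), did not pass there, so its call rests on 1 of 3 probe sets. Against whole brain 1 core gene was higher, nrv1 at 2.30, and 2 were lower, Cont at −2.12 and vari at −1.03. Of all probe sets 31.6% were called higher and 19.3% lower there, and the list median was −0.49. Nrg at 1.47 and nrv2 at −0.50 did not pass against whole brain, nor did nrv2 against all glia, at 0.29.

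Of 7 measured genes for assembly and for Ly6 proteins, small membrane-anchored proteins that the junction needs, 4 were lower and 1 higher in surface glia than in neurons, beside 15.0% and 10.4% of all probe sets, with a median of −1.06. The largest fall was that of the Ly6 gene cold at −3.35 (adjusted p = 0.00323), which exceeded the controls on 3 of 5 surface glia arrays, and pasi1 and pasi2, which encode 4-pass membrane proteins of the junction, were lower by −1.06 and −1.67. The Ly6 gene bou was higher at 1.13, from a mean in neurons of 4.49 that exceeded the controls on 2 of 5 arrays. In the comparison with whole brain 5 of the 7 were lower and 0 higher, beside 19.3% and 31.6% of all probe sets, with a median of −1.57. In that with all glia 2 were lower, pasi2 at −1.78 and udt at −1.40, beside 2.29% of all probe sets. Of the lateral polarity genes, dlg1 and scrib were below their neuron levels at −1.31 and −2.02. Other probe sets of dlg1, at −1.60, 0.06 and 0.10, did not pass, and those of scrib were lower on 3 and did not pass on the remaining one, at −0.92. l(2)gl passed as higher from a level within the controls on every neuron array, 2.47. It also passed as higher than whole brain at 1.92, where 3 of 5 whole-brain arrays exceeded the controls. Against all glia, within the controls on every array, it passed at 2.63. dlg1 and scrib passed as lower than whole brain at −1.38 and −1.85, but not all their other probe sets did. Neither passed against all glia.

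The 4 genes of the smooth septate junction, the form found in the fly gut, were measured as a contrast. Ssk at 1.85 and Tsp2A at 1.27 were higher and mesh at −2.67 was lower in surface glia when set against neurons, and another probe set of mesh at 1.52 did not pass. The remaining gene, hoka, was within the controls in neurons and whole brain and on 4 of 5 surface glia arrays. sdk encodes Sidekick, which marks tricellular contacts at the level of adherens junctions. Its whole-brain level was 7.33, that of neurons 5.63, that of surface glia 5.49 and that of all glia 3.50, within the controls. Its surface glia level passed as lower than whole brain at −1.84 (adjusted p = 0.0251) and did not pass against neurons, at −0.14.

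**Figure D4:**
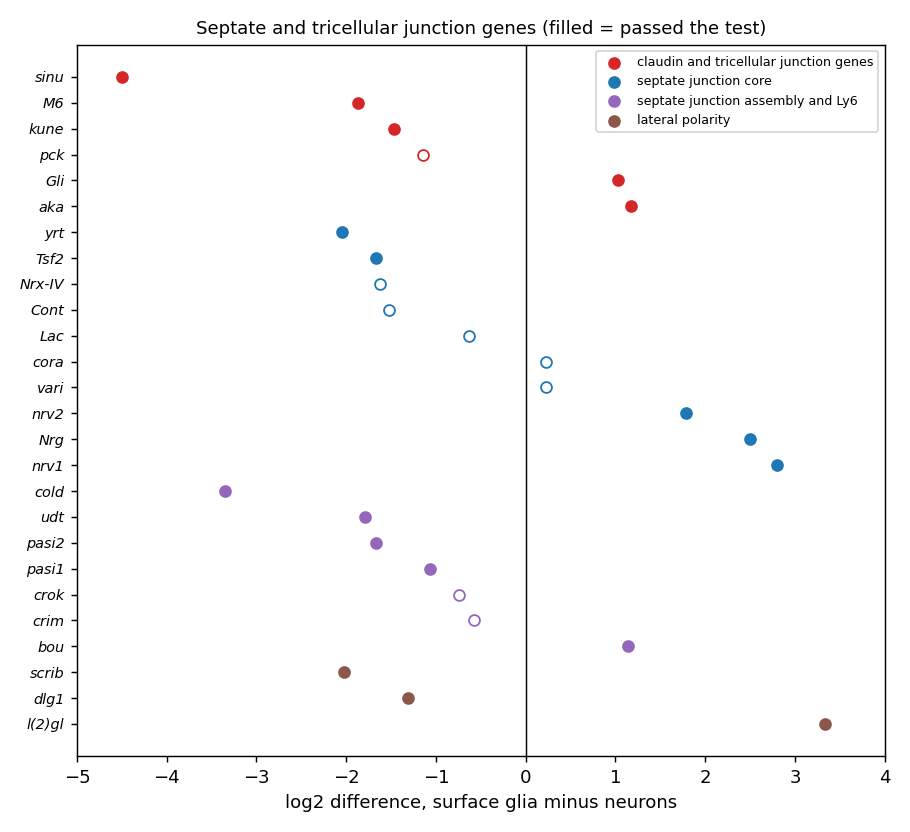
Log2 difference of surface glia minus neurons (horizontal axis) for the 6 claudin and tricellular junction genes and the listed septate junction genes, 1 probe set each; filled points passed the test. sinu at −4.50 has the lowest value plotted, and l(2)gl at 3.34 (from within the negative controls in neurons), nrv1 at 2.80 and Nrg at 2.49 the highest. Gli is within the controls in both groups.

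Profiles were compared by the root-mean-square difference over the 20 arrays, after each probe set was centred on its own mean, for the genes whose group means spanned at least 2. The span was 4.50 for sinu and 2.28 for M6, against 1.87 for kune, 1.65 for pck and 1.33 for aka. Gli met this minimum through its whole-brain level alone, with its other 15 arrays within the negative controls, and no profiles are given for it. Closest to sinu were CG16854 at 0.73, Nadsyn, which encodes an NAD synthetase, at 0.79 and CG34353 at 0.79, where the median over 13645 probe sets was 2.06. Their means in surface glia were 5.39, 5.64 and 5.90, near the mean control percentile of 5.23 there, and in neurons 8.75, 9.06 and 9.32. Closest to M6 were cmpy at 0.48, CG9164 at 0.52 and GluClalpha, a glutamate-gated chloride channel gene, at 0.54, with a median of 1.34.

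**Figure D5:**
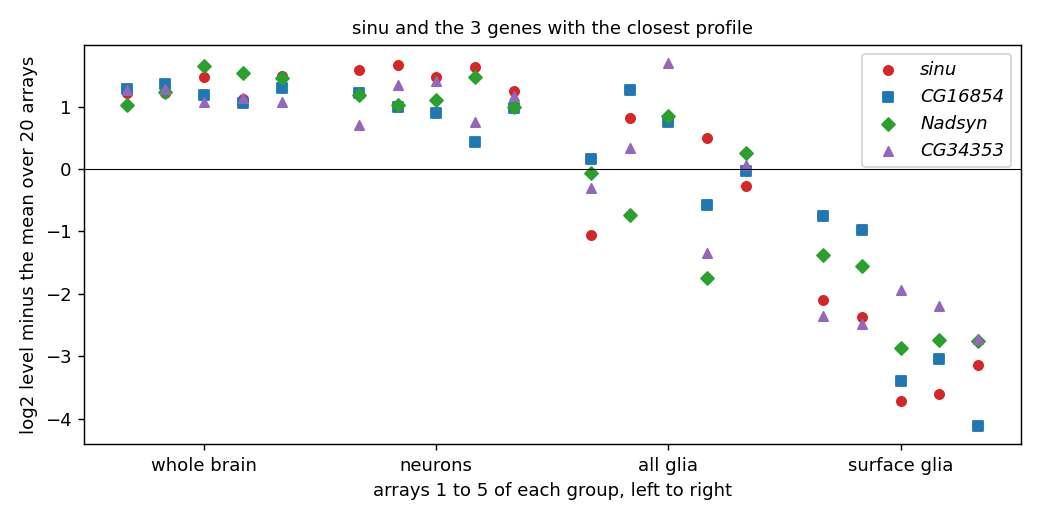
Log2 level of sinu, CG16854, Nadsyn and CG34353 on each of the 20 arrays (horizontal axis, arrays 1 to 5 of each group), minus that gene's mean over the 20 arrays. All 4 genes lie above 0 in whole brain and neurons and below 0 in surface glia.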

How the data were processed

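The authors deposited log2 values, 1 per probe set and array for 20 arrays. The submitters' processing notes name RMA, affy and limma without versions, and the range of the values fits a log2 scale. No scanner files were used, and precision is limited by the 5 arrays per group. Of 18952 probe sets, 183 controls were left out; the probe annotation gave 1 symbol for 13646 of the rest, several for 402 and none for 4721. The 6 comparisons used limma 3.58.1 (R 4.3.3) with group means over all 20 arrays and p-values adjusted by Benjamini-Hochberg across 18769 probe sets. The fit was tested on simulated data. Named genes were the members, the largest rise and fall of each septate junction list and the 3 closest profiles (not given for Gli); the other list genes given with values were chosen after these were seen. Members and lists were chosen with earlier results of these data known. Alternatives were another quantile normalization, median centring, a filter on dim probe sets, a replicate block, array weights per group, fits of 2 groups, no minimum difference, and fits without 1 array or without all glia 4 and surface glia 4. Same-numbered arrays deviated together (r over 0.1) in at most 2 of 5 pairs of any 2 groups, with r up to 0.38 between surface glia and all glia. Yet 10 of 20 arrays deviated most alike with arrays of their own number, out of 5 numbers. The main fit took no pairs, and the replicate block allowed for the numbers.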

Additional observations from a re-analysis of the deposited data

Results flagged for a closer look

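In each of the 6 probe sets and 4 groups, 24 sets of 5 arrays in all, the array farthest from its nearest neighbour was compared with the range of its group. The value of pck on neurons 3, 8.16, was the one set apart by more than Dixon's limit for 5 arrays, with the other neuron arrays between 9.23 and 9.36. Chance sets apart about 1 in 20 such groups. Without that array the difference of pck between neurons and whole brain, 0.79, became 1.01.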

How the results depend on the processing

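Of the 6 comparisons, the number of probe sets called changed by over 1.5 times as follows. After another quantile normalization it was 3 in surface glia against neurons, where it had been 5, 1 in all glia against neurons and 1 in all glia against whole brain. With only probe sets above the negative controls on at least 5 arrays it was 1 in all glia against whole brain and 0 in neurons against whole brain, since that filter removed Gli. In a fit of the 2 groups alone it was 1 in surface glia against all glia, and with array weights per group 1 there, 3 in surface glia against neurons and 1 in all glia against neurons. With no minimum difference it was 2 in neurons against whole brain. Leaving out 1 array at a time gave 4 to 5 in surface glia against neurons, 3 to 4 against whole brain, 2 to 3 against all glia, 2 to 3 in all glia against neurons, 1 to 2 in all glia against whole brain and 1 in neurons against whole brain. Apart from the filter, the cause was not tested.

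Direction turned in differences that had not passed: aka in surface glia against whole brain was −0.030 and M6 in all glia against neurons 0.10 after another quantile normalization, and without all glia 4 and surface glia 4 pck against whole brain was 0.47 and aka against all glia 0.075. Without 1 array at a time pck in surface glia ranged from −0.88 to 0.47 against whole brain and from −0.020 to 1.33 against all glia, and aka from −0.36 to 0.12 against all glia. Of all probe sets, surface glia against whole brain had 5935 higher and 3631 lower, and 2784 and 2639 after another quantile normalization, which moved the median difference from 0.39 to 0.18. In surface glia against all glia 461 and 429 became 85 and 75 with array weights per group and 22 and 6 in the fit of 2 groups. With the replicate block the number of members called was 5, 4, 3, 2, 2 and 1 in the 6 comparisons, as without it, and 10 of 20 arrays deviated most alike with arrays of their own number. Levels near the negative controls, those of Gli, of aka in neurons and of sinu and kune in surface glia, limit the sizes given.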
